A study of Mus musculus with 9 samples.

Results

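The 33 genes described here encode the enzymes that bring fuel into the citric acid cycle and turn it there: the pyruvate dehydrogenase complex, the cycle enzymes, the NADP isocitrate dehydrogenases and malic enzymes, pyruvate carboxylase, the branched-chain keto acid dehydrogenase, the ketone body enzymes and the malate-aspartate shuttle with glutamate dehydrogenase. They were chosen by name, each read from its brightest probe set, and all 33 were measured among 18193 genes. Levels were compared between 3 ages of cardiomyocyte cultures derived from mouse embryonic stem cells, labelled day 10, day 20 and day 30 of differentiation, each measured on 3 arrays. All groups came from the synp line, derived from R1 embryonic stem cells of 129X1 x 129S1 background, which carries the puromycin resistance gene PAC under the promoter of Ncx1, the sodium-calcium exchanger gene now called Slc8a1. Every culture was directed with FGF10, bFGF, VEGF, BMP4 and activin A and was kept in puromycin from day 7. Puromycin selects for cells that use this promoter. The same line served at every age, and whether replicates were independent differentiations is not in the labels, so the p-values rest on a spread between samples that may be only technical. The comparison of ages addresses how far such cells mature in culture.

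The citric acid cycle oxidises acetyl groups to carbon dioxide in the mitochondrial matrix and hands the electrons to the respiratory chain. Pyruvate dehydrogenase makes its acetyl-CoA from pyruvate, and ketone bodies and branched-chain amino acids feed it by routes of their own. The heart depends on this oxidation for contraction, takes up ketone bodies readily, and uses the malate-aspartate shuttle to move the electrons of cytosolic NADH into mitochondria.

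Signals are log2 values, and a log2 difference of 1 is a 2-fold change. Array medians over all 45101 probe sets lay between 5.48 and 5.56, and the number of arrays limits the precision. The 12 cardiomyocyte markers were all measured, with a mean log2 signal of 11.01 to 11.88 over the arrays. Their summed signal was 15.76 to 16.30 at day 10, 16.08 to 16.44 at day 20 and 16.28 to 16.49 at day 30. Of the 12, limma called 1 between day 30 and day 10, Tnni3, which was higher by 2.85 (adjusted p = 0.00088). Markers of fibroblasts moved with age: 8 of 10 rose by day 30, and their summed signal was 11.29 to 13.24 at day 10, 14.73 to 15.69 at day 20 and 15.96 to 16.19 at day 30. Of 5 cell cycle markers measured, 3 fell by day 30, and of 6 pluripotency markers 4 fell. Of 5 smooth muscle markers Mylk rose, by 3.997, and Cnn1 and Acta2 fell, by 2.75 and 1.04 on the log2 scale. The day 10 arrays were the most uneven: their lowest correlation with an array of the same day was 0.965, against 0.987 at day 20 and 0.986 at day 30. The summed cell cycle signal was 12.98, 13.36 and 11.39 in day 10 replicates 1, 2 and 3, so replicate 3 stood lowest. Day 30 replicate 2 stood apart in its 18S ribosomal RNA control probe sets, with a mean signal of 10.27 against 12.08 to 13.44 on the other arrays. Its 3 prime actin control exceeded its 5 prime one by 0.79, against 0.23 to 0.59 on the other arrays. These marker lists moved over the same days as the genes below, and their part was not tested in any result. In such bulk samples, fewer cells of a type and less RNA per cell cannot be told apart.

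Between day 30 and day 10, 27 of the 33 genes did not pass the test, while Pdha1, Me3 and Acat1 rose and Me2, Bdh1 and Glud1 fell, by limma with a Benjamini-Hochberg adjusted p under 0.05 over all genes. These 6 make 18.2% of the 33, and 21.1% of all genes passed the same test, so the share is close to the background and is not a result about these genes. By direction, 11.2% of all genes were called higher and 9.92% lower. A log2 difference of at least 1 was reached by 4 of the 33 (12.1%), against 11.2% of all genes. For 10 of the 33 genes the day 30 arrays did not overlap with the day 10 arrays, 4 standing above and 6 below, against 36.1% of all genes. The median log2 difference of the 33 was 0.09, against -0.03 over all genes, and their median absolute difference was 0.27, against 0.22. Single arrays moved the counts: 6 were higher and 4 lower without day 10 replicate 3, 1 was higher without day 10 replicate 1, day 10 replicate 2, or either of day 30 replicates 1 and 3, and 1 was lower without day 10 replicate 2 or day 30 replicate 2.

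By day 20, 4 of these genes had already passed. Between day 20 and day 10, Acat1 rose and Me2, Bdh1 and Glud1 fell, which is 12.1% of the 33 against 14% of all genes, where 7.3% were called higher and 6.69% lower. Without day 10 replicate 3, 8 were higher and 5 lower, and those lower numbered 0 to 1 without day 10 replicate 1, day 10 replicate 2 or any 1 of the day 20 arrays. Between day 30 and day 20, limma called 0 of the 33, with 1 at an unadjusted p under 0.05, and it called 0.335% of all genes. For the later change minus the earlier change it also called 0 of the 33, with 4 at an unadjusted p under 0.05, against 0.478% of all genes, and it called 5 without day 10 replicate 3. A moderated F test over all 3 days called 5 of them (Pdha1, Me2, Bdh1, Acat1 and Glud1), against 17.5% of all genes, and leaving out each array in turn gave 1 (without day 10 replicate 2) to 9 (without day 10 replicate 3). Replicates of the 33 were less alike at day 10, with a median SD of 0.28 there, 0.17 at day 20 and 0.16 at day 30, and over all genes the medians were 0.19, 0.13 and 0.14.

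**Figure D1:**
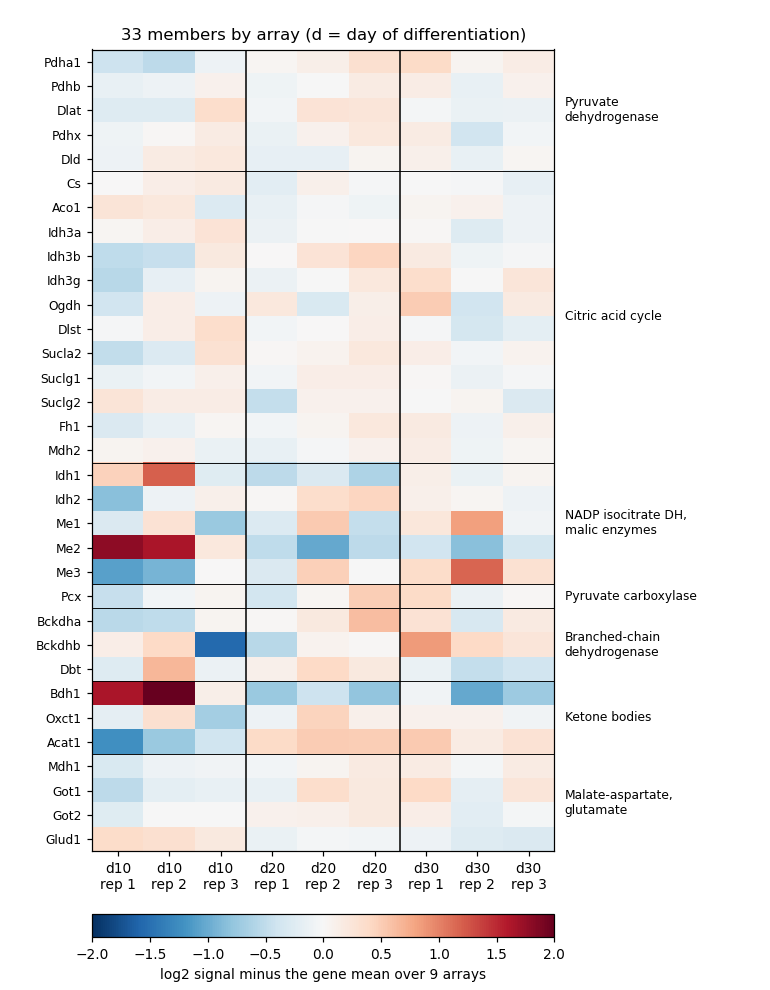
Colour shows the log2 signal of each of the 33 genes minus its own mean over the 9 arrays, with arrays in columns by day and replicate and genes in rows by pathway. Bdh1 and Me2 stand out as high in day 10 replicates 1 and 2, Acat1 is low in the 3 day 10 arrays, and most rows of the citric acid cycle are pale throughout.

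**Figure D2:**
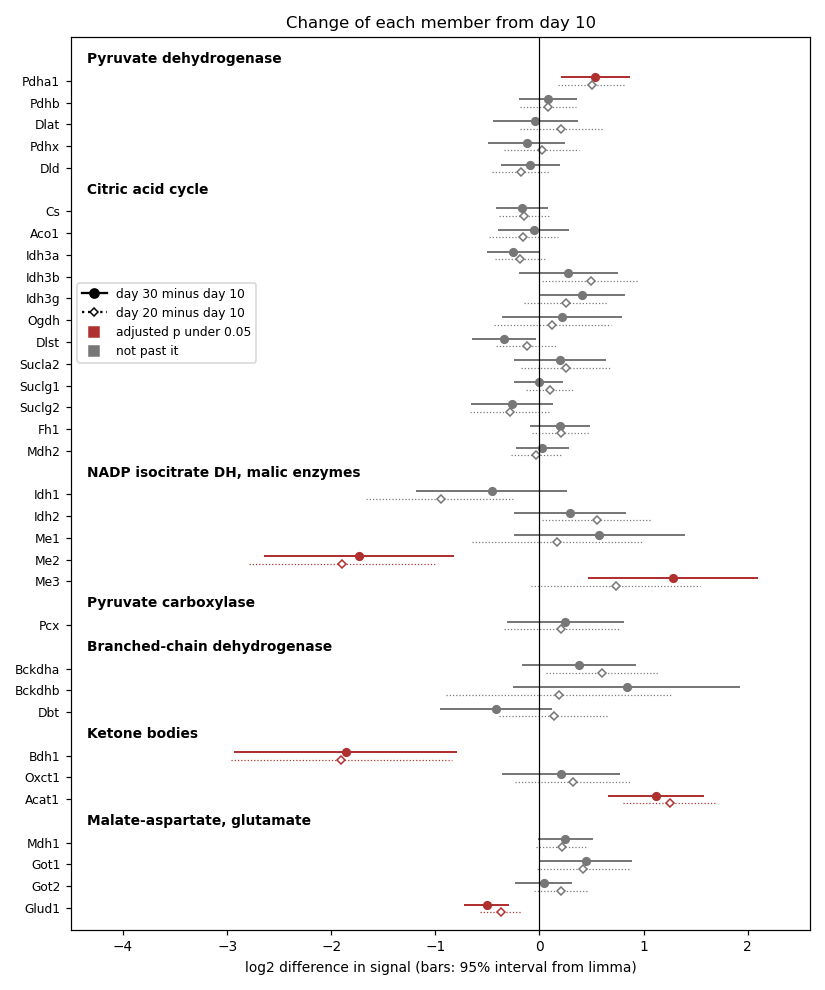
Points give the log2 difference from day 10 for each gene, filled for day 30 and open for day 20, and bars are 95% intervals from limma, with red for an adjusted p under 0.05. All 12 citric acid cycle genes lie between -0.34 and 0.41 at day 30 minus day 10, while Me2 and Bdh1 lie below -1.7.

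The promoters of genes that changed are shown because these genes moved in opposite directions. The sequences are the 250 bases before a start listed in the RefSeq table for GRCm38.p6, which matched 29 of the 33 genes. For Me3 that window lies inside the gene, whose annotated span begins at 89632284. Of the 6 genes that passed between day 30 and day 10, the 4 matched were Pdha1, Me3, Bdh1 and Glud1, and for Bdh1, which has more than 1 start in the table, the one farthest upstream is given. Capitals mark any of the motifs searched below.
Pdha1, chrX:160138431-160138680, minus strand: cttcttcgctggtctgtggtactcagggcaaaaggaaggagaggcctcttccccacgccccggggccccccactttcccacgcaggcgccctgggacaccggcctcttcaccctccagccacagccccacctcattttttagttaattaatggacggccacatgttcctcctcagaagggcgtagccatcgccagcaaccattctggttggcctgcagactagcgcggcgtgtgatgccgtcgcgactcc
Me3, chr7:89632568-89632817, plus strand: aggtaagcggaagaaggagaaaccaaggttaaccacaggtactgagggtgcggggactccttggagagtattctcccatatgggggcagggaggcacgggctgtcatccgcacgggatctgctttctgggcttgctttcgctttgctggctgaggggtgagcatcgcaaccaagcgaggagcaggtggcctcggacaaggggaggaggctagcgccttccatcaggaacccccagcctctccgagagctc
Bdh1, chr16:31422047-31422296, plus strand: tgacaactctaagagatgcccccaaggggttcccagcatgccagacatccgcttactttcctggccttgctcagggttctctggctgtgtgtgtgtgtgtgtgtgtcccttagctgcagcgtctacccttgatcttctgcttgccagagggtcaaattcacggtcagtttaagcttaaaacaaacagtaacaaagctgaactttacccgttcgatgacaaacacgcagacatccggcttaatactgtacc
Glud1, chr14:34310477-34310726, plus strand: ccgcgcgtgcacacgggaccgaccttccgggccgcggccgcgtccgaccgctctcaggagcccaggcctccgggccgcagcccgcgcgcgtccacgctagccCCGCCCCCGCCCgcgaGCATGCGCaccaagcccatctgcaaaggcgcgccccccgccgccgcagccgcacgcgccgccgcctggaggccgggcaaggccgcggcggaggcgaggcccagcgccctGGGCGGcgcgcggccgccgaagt
Motifs were searched on both strands. GCATGCGC, the core of the NRF1 element, occurred in 1 of the 29 promoters (3.45%), that of Glud1, against 2.32% of 27025 promoters of the same length. GGGCGG, the GC box, occurred in 17 of 29 (58.6%), against 32.9% of all, and Glud1 held 3 copies. TCAAGGTCA, the element of the estrogen-related receptors, occurred in 0 of 29, against 0.366% of all. AGGTCA, the core of nuclear receptor elements, which is contained in the preceding motif, occurred in 5 (17.2%), against 13.8%. CCAAT occurred in 13 (44.8%), against 34.5%, and TATAAA in 1 (3.45%), that of Got2, against 13.0%. No searched motif lay in the windows of Pdha1, Me3 or Bdh1. The median GC content was 61.2% in the 29 promoters and 52.0% in all, and it was 82.0% for Glud1 and 49.6% for the Bdh1 window shown. Base composition is shared by these motif counts, and a match is a run of letters, not a bound site.

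Among the 5 genes of the pyruvate dehydrogenase complex, Pdha1 passed the test between day 30 and day 10 in the values as deposited. Pdha1 encodes the alpha subunit of the E1 component, the part that is switched off by phosphorylation. Its signals were 11.50, 11.40 and 11.81 at day 10, 11.96, 12.03 and 12.23 at day 20, and 12.29, 11.97 and 12.06 at day 30. Every later array stood above every day 10 array. At day 30 it was 0.54 ± 0.14 (SE), or 1.45-fold, above day 10, with an adjusted p of 0.030. Between day 20 and day 10 it was 0.50, with an adjusted p of 0.051. The call was lost without day 10 replicate 1, day 10 replicate 2, day 30 replicate 1 or day 30 replicate 3, where the adjusted p reached at most 0.098. The mean of its probe sets gave 0.47 with an adjusted p of 0.080. Centring each array on its median over the 18193 genes gave 0.38 and ended the call. That centring lowers every gene by 0.16 for this pair of days.

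None of the other subunits passed the test between any days in its brightest probe set, though a dimmer probe set did for Pdhb and Dlat when every probe set was tested on its own. Pdhb, the beta subunit of E1, differed by 0.08, Dlat, the acetyltransferase E2, by -0.04, Pdhx, the protein that anchors E3, by -0.12, and Dld, the dihydrolipoamide dehydrogenase E3, by -0.09. The dimmer probe sets that passed were higher at day 30 than at day 10, by 0.47 for Pdhb (adjusted p = 0.033) and by 0.56 for Dlat (adjusted p = 0.038), while the brightest ones did not pass. Dld is shared with the complexes that oxidise 2-oxoglutarate and branched-chain keto acids. Dlat read 9.93 and 9.94 in day 10 replicates 1 and 2 and 10.54 in replicate 3, and without replicate 3 its difference between day 20 and day 10 was 0.41 with an adjusted p of 0.041.

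None of the 12 citric acid cycle genes passed between any days in its brightest probe set as deposited, with all 9 arrays weighted equally. Idh3a and Dlst passed as lower between day 30 and day 10 after median centring. With array weights Idh3g passed as higher between these days. So did Idh3b (0.68, adjusted p = 0.0094) and Sucla2 (0.37, adjusted p = 0.046) between day 20 and day 10. The differences of the 12 genes between day 30 and day 10 had a median of 0.01. They ran from -0.34 for Dlst, the succinyltransferase of the 2-oxoglutarate dehydrogenase complex, to 0.41 for Idh3g, a regulatory subunit of the NAD isocitrate dehydrogenase. The interval for Dlst ran from -0.64 to -0.05, and that for Idh3g from 0.01 to 0.81 (95% intervals from limma). Cs, citrate synthase, which joins acetyl-CoA to oxaloacetate, differed by -0.17, and its day 30 arrays (11.77, 11.77 and 11.62) lay just below those of day 10 (11.78, 11.91 and 11.97). Its other probe sets differed by -0.23 and -0.56, and the last of these passed when every probe set was tested on its own (adjusted p = 0.043). Aco1, the cytosolic aconitase, differed by -0.06. Ogdh, the E1 component of the 2-oxoglutarate dehydrogenase complex, differed by 0.22, Fh1, fumarase, by 0.20, and Mdh2, the mitochondrial malate dehydrogenase, by 0.03. Mdh2 read between 12.44 and 12.75 on all 9 arrays.

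The succinyl-CoA ligase genes did not pass the test in the unweighted fit to all 9 arrays. Sucla2, the beta subunit of the ADP-forming enzyme, read 11.15, 11.38 and 11.95 at day 10, and 11.59 to 11.78 at day 30, a difference of 0.20. Suclg1, the shared alpha subunit, differed by -0.01. Suclg2, the beta subunit of the GDP-forming enzyme, differed by -0.27, with 9.73, 9.79 and 9.44 at day 30 against 9.99, 9.89 and 9.89 at day 10. Within arrays, Sucla2 minus Suclg2 averaged 1.57 ± 0.46 at day 10, 2.11 ± 0.27 at day 20 and 2.04 ± 0.23 at day 30 (SD, n = 3 each), and an exact permutation test over the 3 days gave p = 0.22 and 0.27 after adjustment over the 6 pairs compared.

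None of the subunits of the NAD isocitrate dehydrogenase, which catalyses the first oxidative decarboxylation of the cycle, passed alone, while the difference between Idh3a and Idh3g within arrays did. Idh3a, the catalytic subunit, read 11.76, 11.86 and 12.001 at day 10, 11.61, 11.72 and 11.74 at day 20, and 11.76, 11.47 and 11.63 at day 30. Idh3g read 10.87, 11.26 and 11.48 at day 10, 11.31, 11.41 and 11.64 at day 20, and 11.77, 11.41 and 11.66 at day 30. Their differences between day 30 and day 10 were -0.26 (adjusted p = 0.13) and 0.41 (adjusted p = 0.14). Idh3a minus Idh3g within an array averaged 0.67 ± 0.20 at day 10, 0.23 ± 0.12 at day 20 and 0.00 ± 0.04 at day 30 (SD, n = 3 each), and no array of 1 day overlapped with those of another. Of the 6 pairs compared, this was the 1 that passed: the exact permutation test over 280 splits of the arrays gave p = 0.0036, the smallest it can give, and 0.021 after adjustment over the 6 pairs. The pairs were chosen with earlier results of these data known, and the adjustment does not allow for that choice. With the mean of each gene's probe sets in place of the brightest, the difference between day 30 and day 10 was -0.50 rather than -0.67 and the adjusted p was 0.15. The 3 dimmer probe sets of Idh3a differed by 0.00, 0.00 and -0.07 between day 30 and day 10.

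The probe sets of Idh3b, the other regulatory subunit, disagreed. The brightest read 11.00, 11.05 and 11.71 at day 10, 11.51, 11.78 and 11.94 at day 20, and 11.68, 11.42 and 11.49 at day 30, a difference between day 30 and day 10 of 0.28 (adjusted p = 0.38). The second read 10.59, 10.56 and 11.23 at day 10, 10.42, 10.61 and 10.54 at day 20, and 10.06, 9.93 and 10.00 at day 30. Its difference was -0.79, with an adjusted p of 0.017 when every probe set was tested on its own. The direction for Idh3b therefore depends on the probe set, and no direction is given for the gene. Without day 10 replicate 3, the brightest probe set passed between day 30 and day 10 (0.51, adjusted p = 0.036), as did Idh3g (0.55, adjusted p = 0.045) and Sucla2 (0.43, adjusted p = 0.026). Between day 20 and day 10, leaving out that array brought in Idh3b (0.72), Sucla2 (0.48) and Aco1 (-0.32).

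**Figure D3:**
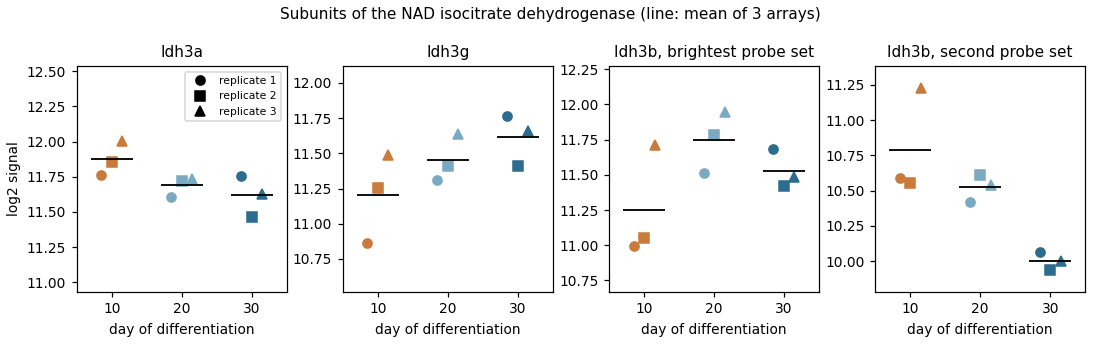
Points are the log2 signals of the single arrays by day for Idh3a, Idh3g and 2 probe sets of Idh3b, with a line at the mean of 3 arrays. The day 30 mean of Idh3a lies slightly below its day 10 mean and that of Idh3g above it. The means of the Idh3b probe sets move in opposite directions between day 10 and day 20, by 0.49 and -0.27. Both are lower at day 30 than at day 20, and the second reads 9.93 to 10.06 at day 30.

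Of the malic enzymes, which turn malate into pyruvate, Me2 fell and Me3 rose between day 30 and day 10. Me2, the NAD-linked enzyme of mitochondria, read 8.88, 8.72 and 7.30 at day 10, 6.58, 6.06 and 6.57 at day 20, and 6.70, 6.26 and 6.74 at day 30. Every later array lay below every day 10 array, and day 10 replicate 3 stood between. Day 30 minus day 10 gave -1.73 ± 0.39 (SE, adjusted p = 0.017), so Me2 was 3.33-fold lower at day 30, and day 20 minus day 10 gave -1.90 (adjusted p = 0.018). All 4 of its probe sets were lower at day 30, by -0.85 to -1.73. The call between day 30 and day 10 was lost without day 10 replicate 2 or day 30 replicate 2 (adjusted p up to 0.059), and that between day 20 and day 10 without day 10 replicate 2 or either of day 20 replicates 2 and 3 (up to 0.071). In the brightest probe set of Me2, day 10 replicate 3 was the lowest of its age, as it was for the summed cell cycle markers. That array was not the lowest in the probe set that read 6.77, 7.175 and 6.83 at day 10. Nor was it in the one that read 6.41, 6.43 and 6.50. Day 10 replicate 3 was the highest of its age for the summed cardiomyocyte, endothelial and pluripotency markers (16.30, 9.09 and 10.125). The part of dividing cells or of any other cells in this change was not tested.

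Me3, the NADP-linked mitochondrial enzyme, rose and was dim throughout. It read 4.95, 5.11 and 6.05 at day 10, 5.75, 6.51 and 6.03 at day 20, and 6.40, 7.20 and 6.35 at day 30, so day 30 stood wholly above day 10. Day 30 exceeded day 10 by 1.28 ± 0.35 (SE, adjusted p = 0.036), or 2.43-fold. This call held in only 3 of the 9 fits that leave out an array, those without day 10 replicate 3 or either of day 20 replicates 1 and 2. In the other 6 the adjusted p reached at most 0.11, and quantile normalization ended the call too, with a difference of 1.15. Me1, the cytosolic NADP-linked enzyme, was far brighter and read 10.11, 10.69 and 9.67 at day 10, 10.13, 10.93 and 9.92 at day 20, and 10.63, 11.23 and 10.34 at day 30. The ages overlapped, and the difference between day 30 and day 10, 0.57, did not pass (adjusted p = 0.30). Me3 minus Me1 within arrays differed by 0.71 between day 30 and day 10, and the exact permutation test over the 3 days gave p = 0.35.

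The NADP isocitrate dehydrogenases, which make NADPH, missed the threshold. Idh1, the cytosolic enzyme, read 10.50, 11.25 and 9.80 at day 10, 9.52, 9.75 and 9.43 at day 20, and 10.16, 9.92 and 10.10 at day 30. Its lowest values were thus at day 20, where every array lay below those of both other days. Day 20 minus day 10 gave -0.95 (adjusted p = 0.082) and day 30 minus day 10 gave -0.46 (adjusted p = 0.35). Without day 10 replicate 3 both passed, at -1.31 (adjusted p = 0.0052) and -0.82 (adjusted p = 0.027). Idh2, the mitochondrial enzyme, read 10.87, 11.59 and 11.80 at day 10, 11.72, 12.05 and 12.13 at day 20, and 11.81, 11.75 and 11.59 at day 30. Day 20 minus day 10 gave 0.55 (adjusted p = 0.16), and 0.74 without day 10 replicate 3 (adjusted p = 0.046). Idh2 minus Idh1 averaged 0.90 ± 0.95 at day 10, 2.40 ± 0.26 at day 20 and 1.66 ± 0.17 at day 30 (SD, n = 3 each). The exact permutation test of this pair gave p = 0.082, and 0.15 after adjustment over the 6 pairs.

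Pcx, pyruvate carboxylase, which refills the cycle by making oxaloacetate, read 7.03, 7.45 and 7.56 at day 10, 7.14, 7.54 and 7.998 at day 20, and 7.88, 7.39 and 7.52 at day 30. Day 30 minus day 10 gave 0.25 (adjusted p = 0.52). The array also carries control probe sets for the pyruvate carboxylase gene, and those for its 3 prime end, its 5 prime end and its middle differed by 0.25, 0.16, -0.16 and 0.20.

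In the branched-chain keto acid dehydrogenase, which commits leucine, isoleucine and valine to oxidation, none of 3 subunits passed. Bckdha, the alpha subunit of E1, read 8.03, 8.07 and 8.63 at day 10, 8.59, 8.76 and 9.18 at day 20, and 8.86, 8.25 and 8.74 at day 30. The differences were 0.60 between day 20 and day 10 (adjusted p = 0.13) and 0.38 between day 30 and day 10 (adjusted p = 0.30), and the first of these was 0.80 without day 10 replicate 3 (adjusted p = 0.037). Bckdhb, the beta subunit, read 9.01, 9.28 and 7.34 at day 10, 8.33, 8.95 and 8.91 at day 20, and 9.73, 9.28 and 9.13 at day 30. Day 10 replicate 3 stood far below the rest, and the difference between day 30 and day 10, 0.84, had an adjusted p of 0.26. Dbt, the E2 component, read 8.63, 9.54 and 8.76 at day 10, 8.995, 9.28 and 9.09 at day 20, and 8.76, 8.41 and 8.50 at day 30. Its day 30 arrays lay wholly below those of day 20, with a difference of -0.56 (adjusted p = 0.43).

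Among the ketone body enzymes the last step, Acat1, rose, the entry step, Bdh1, fell, and the middle step, Oxct1, did not pass. Acat1, the mitochondrial acetoacetyl-CoA thiolase, which splits acetoacetyl-CoA into acetyl-CoA and also serves isoleucine breakdown, read 9.66, 10.14 and 10.48 at day 10, 11.27, 11.40 and 11.37 at day 20, and 11.41, 11.05 and 11.18 at day 30. Every later array lay above every day 10 array by more than 0.5. The difference was 1.12 ± 0.20 (SE) between day 30 and day 10, or 2.17-fold (adjusted p = 0.0060), and 1.25 between day 20 and day 10 (adjusted p = 0.0068). Its 3 probe sets gave 1.12, 1.18 and 1.48 between day 30 and day 10. Both calls held in all 9 fits that leave out an array, with adjusted p up to 0.025 and 0.031. The summed fibroblast markers also rose with age, and read 11.29, 13.24 and 12.35 in day 10 replicates 1, 2 and 3. On those arrays the summed cardiomyocyte markers read 15.76, 15.88 and 16.30. The part of any marker list in this change was not tested.

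Bdh1, the mitochondrial 3-hydroxybutyrate dehydrogenase, which oxidises 3-hydroxybutyrate to acetoacetate, read 6.94, 7.31 and 5.42 at day 10, 4.56, 4.89 and 4.52 at day 20, and 5.23, 4.28 and 4.57 at day 30. The later arrays lay below all day 10 arrays, and close to the lower quartile of the arrays (4.25 to 4.29), so the size of the fall is read near the floor. Day 30 minus day 10 gave -1.86 ± 0.46 (SE, adjusted p = 0.025), so Bdh1 was 3.64-fold lower at day 30 in this probe set. Day 20 minus day 10 gave -1.90 (adjusted p = 0.032). Its dimmer probe set gave -0.99 (adjusted p = 0.091) and -1.02 (adjusted p = 0.10) when every probe set was tested on its own, and did not pass. The call between day 30 and day 10 was lost without day 10 replicate 1, day 10 replicate 2, day 30 replicate 2 or day 30 replicate 3 (adjusted p up to 0.080). The contrast of day 20 with day 10 kept its call without day 10 replicate 3 or either of day 30 replicates 1 and 2 and lost it in the other 6 fits (adjusted p up to 0.095). As with the brightest probe set of Me2, day 10 replicate 3 was the lowest of its age. That array was also the lowest of its age for the summed cell cycle markers. It was the highest of its age for the summed cardiomyocyte, endothelial and pluripotency markers. The part of any of these lists was not tested. Oxct1, succinyl-CoA:3-ketoacid CoA transferase, the step that activates acetoacetate, read 10.90, 11.40 and 10.40 at day 10, 10.98, 11.53 and 11.18 at day 20, and 11.16, 11.16 and 11.01 at day 30, a difference between day 30 and day 10 of 0.21 (adjusted p = 0.61).

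**Figure D4:**
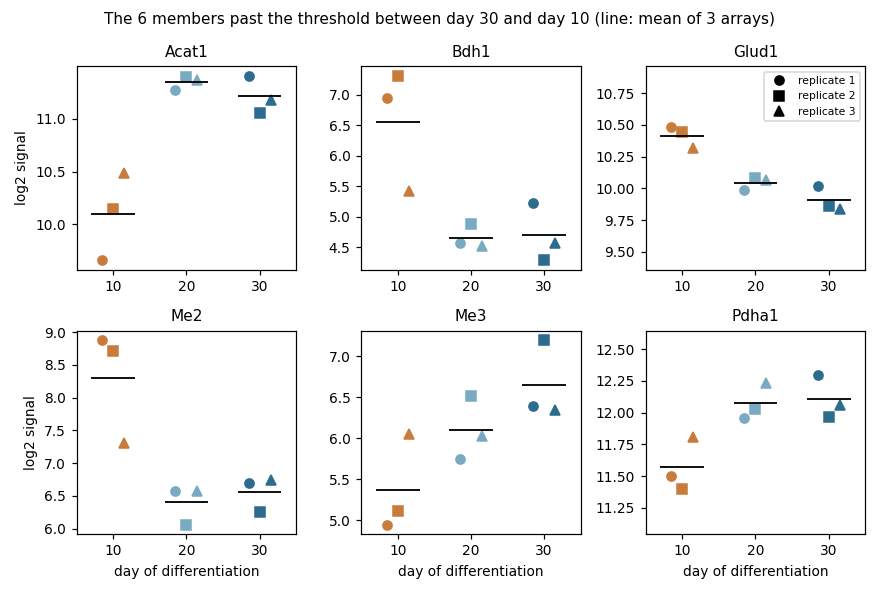
Points are the log2 signals of single arrays by day for the 6 genes past the threshold between day 30 and day 10, with a line at the mean of 3 arrays and each panel on its own scale. Acat1, Me3 and Pdha1 stand higher and Bdh1, Glud1 and Me2 lower at day 30, and day 10 replicate 3 lies nearest the later arrays in all 6 panels.

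Of the malate-aspartate shuttle and glutamate genes, 1 of 4 passed. Glud1, glutamate dehydrogenase, which turns glutamate into 2-oxoglutarate, read 10.48, 10.45 and 10.32 at day 10, 9.99, 10.08 and 10.07 at day 20, and 10.02, 9.86 and 9.84 at day 30. The replicates were close, and the lowest day 10 array stood above the highest later one. Day 30 lay below day 10 by -0.51 ± 0.09 (SE, log2 scale, adjusted p = 0.0057), so Glud1 was 1.42-fold lower at day 30, and this call held in all 9 fits that leave out an array (adjusted p up to 0.026). Between day 20 and day 10 it was -0.37 (adjusted p = 0.030), a call that was lost without day 10 replicate 1, day 10 replicate 2 or any of the 3 day 20 arrays (adjusted p up to 0.090). The second probe set gave -0.32 between day 30 and day 10. The promoter of Glud1, shown above, was the 1 of 29 (3.45%) with an NRF1 core, against 2.32% of all promoters. A part of this motif in the fall was not tested.

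The enzymes of the shuttle itself did not pass. Mdh1, the cytosolic malate dehydrogenase, read 13.20, 13.00 and 13.22 at day 30 against 12.74, 12.95 and 12.98 at day 10, wholly above, with a difference of 0.25 (adjusted p = 0.15). Got1, the cytosolic aspartate aminotransferase, differed by 0.44 (adjusted p = 0.14), and Got2, the mitochondrial one, by 0.04 (adjusted p = 0.85). Got2 minus Got1 within arrays averaged 0.96 ± 0.07 at day 10, 0.75 ± 0.24 at day 20 and 0.55 ± 0.14 at day 30 (SD, n = 3 each), with p = 0.071 by the exact permutation test and 0.15 after adjustment over the 6 pairs. Mdh2 minus Mdh1 differed by -0.22 between day 30 and day 10 (exact permutation p = 0.10, adjusted 0.15).

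The other listed genes of these pathways numbered 61, of which 54 were measured. Between day 30 and day 10, 10 rose and 3 fell, or 24.1% against 21.1% of all genes, and 41 did not pass. Leaving out an array in turn gave 6 to 15 higher and 1 to 5 lower, with both upper ends without day 10 replicate 3 and both lower ends without day 30 replicate 1. Between day 20 and day 10, 7 rose and 5 fell, or 22.2% against 14% of all genes, with 14 higher and 8 lower without day 10 replicate 3 and 1 higher without day 20 replicate 2 or 3. The succinate dehydrogenase genes Sdha, Sdhb, Sdhc and Sdhd, which complete the cycle, differed by 0.08, -0.05, 0.20 and -0.10 between day 30 and day 10, and none passed.

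Around pyruvate dehydrogenase, Mpc1 rose and Pdk4 did not pass. Mpc1, a subunit of the mitochondrial pyruvate carrier, read 9.60, 9.38 and 8.47 at day 10, 10.20, 10.85 and 10.67 at day 20, and 11.00, 10.96 and 11.00 at day 30. It was higher at day 30 than at day 10 by 1.83 ± 0.28 (SE, adjusted p = 0.0036), or 3.57-fold, and the ages did not overlap. Pdk4, a kinase that shuts off pyruvate dehydrogenase when fatty acids are burnt, read 6.44, 6.96 and 9.05 at day 10, 8.78, 9.19 and 9.33 at day 20, and 7.84, 9.14 and 8.41 at day 30. Its difference of 0.98 between day 30 and day 10 did not pass (adjusted p = 0.32). Without day 10 replicate 3, which read like the later arrays, it was 1.76 (adjusted p = 0.011).

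The aspartate-glutamate carriers of the malate-aspartate shuttle changed in opposite directions. Slc25a12, the carrier of heart and brain also known as aralar, read 9.63, 10.02 and 10.11 at day 10, 10.56, 10.82 and 10.80 at day 20, and 10.95, 10.64 and 10.68 at day 30, higher at day 30 than at day 10 by 0.83 ± 0.15 (SE, adjusted p = 0.0072). The mean of its probe sets gave 0.36 and did not pass (adjusted p = 0.21). Slc25a13, the liver type also known as citrin, read 9.27, 9.30 and 9.54 at day 10, 8.12, 7.85 and 8.78 at day 20, and 7.66, 7.78 and 8.12 at day 30. It was lower at day 30 than at day 10 by -1.52 ± 0.23 on the log2 scale (SE, adjusted p = 0.0035). Both calls held in all 9 fits that leave out an array, with adjusted p up to 0.028 for Slc25a12 and 0.016 for Slc25a13.

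Between day 30 and day 10 Acss1 rose, and so did 5 of the 17 further genes of branched-chain breakdown measured (29.4%). Over all genes, 11.2% were called higher. The list was chosen with earlier results of these data known, and all genes include dim ones. The difference between these shares was not tested. Acss1, the mitochondrial acetyl-CoA synthetase, read 6.01, 6.89 and 7.19 at day 10, 8.27, 9.02 and 8.82 at day 20, and 9.16, 8.64 and 8.87 at day 30, a difference between day 30 and day 10 of 2.19 ± 0.32 (SE, adjusted p = 0.0028), while the mean of its probe sets gave 0.69. Acadsb, the short and branched-chain acyl-CoA dehydrogenase of isoleucine breakdown, read 7.54, 7.45 and 7.52 at day 10, 7.96, 8.32 and 8.29 at day 20, and 8.71, 8.86 and 8.48 at day 30, a difference of 1.18 ± 0.13 (SE, adjusted p = 0.00093). Of the 17 branched-chain genes limma called 0 lower at day 30 and had 7 at an unadjusted p under 0.05, and between day 20 and day 10 it called 3 higher and 1 lower. Of the 5 that rose by day 30, Acadsb and Aldh6a1 kept their call in all 9 fits that leave out an array, and Mcee, Bcat2 and Mccc1 did not. Bcat2 lost it without day 10 replicate 1 and without either of day 30 replicates 1 and 2 (adjusted p up to 0.088), and Mccc1 without day 30 replicate 1 (adjusted p = 0.051). Aldh6a1, methylmalonate semialdehyde dehydrogenase of valine breakdown, was higher by 1.35 (adjusted p = 0.012). Mcee, methylmalonyl-CoA epimerase, was higher by 0.62 (adjusted p = 0.019), a call lost without day 10 replicate 1, day 10 replicate 2, day 30 replicate 1 or day 30 replicate 3 (adjusted p up to 0.061). Acly, ATP citrate lyase, which makes cytosolic acetyl-CoA for lipid synthesis, fell, with 10.50, 10.84 and 10.74 at day 30 against 11.36, 11.98 and 11.31 at day 10. Its difference was -0.86 (adjusted p = 0.016), -0.43 for the mean of its probe sets, and it did not pass without day 30 replicate 1 (adjusted p = 0.057). The fibroblast markers rose over the same days, and other marker lists moved too. The part of any of them in these changes was not tested.

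**Figure D5:**
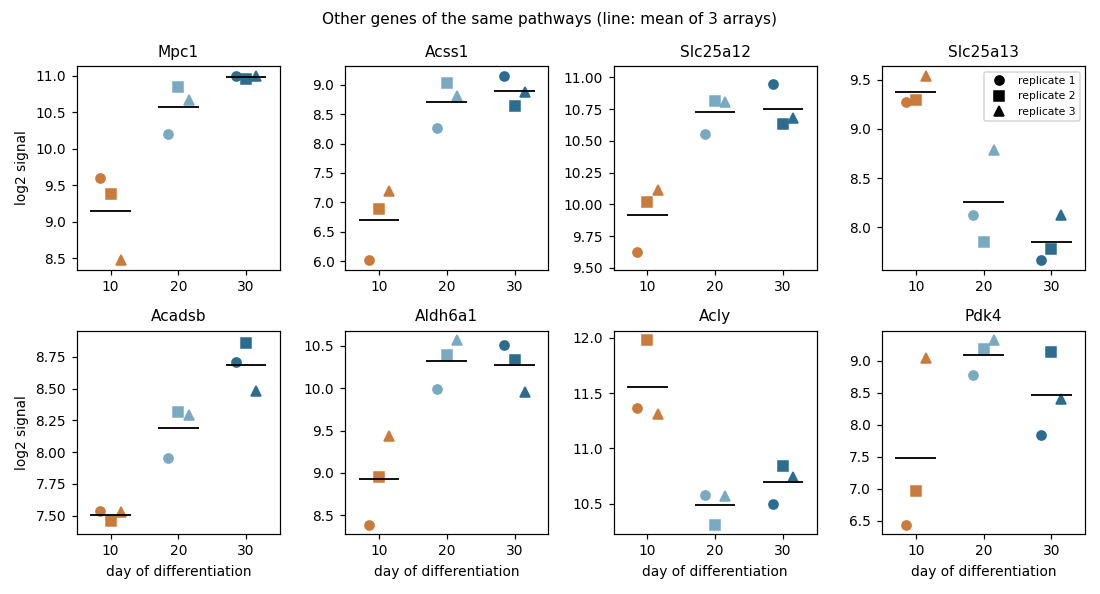
Points are the log2 signals of single arrays by day for 8 further genes of these pathways, with a line at the mean of 3 arrays and each panel on its own scale. Mpc1, Acss1, Slc25a12, Acadsb and Aldh6a1 stand higher and Slc25a13 and Acly lower at day 30, while for Pdk4 day 10 replicate 3 lies at the level of the later arrays.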

How the data were processed

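RNA of the cardiomyocyte cultures at day 10, day 20 and day 30 was hybridised to 9 one-colour 3 prime arrays, 3 for each day, grouped by the sample labels. Values are the log2 signals that the authors deposited for each probe set on each array. The sources used here give neither their normalization nor their log base, and base 2 was inferred from their range of 2.77 to 14.52. Of 45101 probe sets, 34958 had 1 gene symbol and only these were named, 932 had several and 9211 had none. A gene was read from its probe set with the highest mean, which gave 18193 genes with no filter on low signal. Limma 3.58.1 in R 4.3.3 fitted a mean per day to all 9 arrays, with p-values two-sided and Benjamini-Hochberg adjusted over all genes and a threshold of 0.05. The limma and permutation steps were tested on simulated data.

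For 6 pairs of genes the within-array difference was compared across ages by permuting the arrays exhaustively (exact permutation, one-way F, Python 3.11.15), with p-values adjusted over the pairs. The genes, lists, pairs and markers were chosen with earlier results of these data known. All 33 genes are named. Values on all arrays are given for those past the threshold between any days and for others of a pathway that differed by at least 0.5 between any days; of the other pathway genes past the threshold between day 30 and day 10, up to 8 are named in order of their F test, and Pdk4 always. The succinate dehydrogenase genes were added outside this rule after their values were seen. Replicate numbers did not meet the criterion for pairing the arrays: correlations of deviations between same-numbered arrays ran from -0.15 to 0.43, with 3 of 9 above 0.1. Alternatives were quantile normalization, median centring, leaving out dim genes, mean or separate probe sets, array weights, an intensity trend with a robust prior, fits of only the arrays compared, the replicate number as a block, and leaving out each array.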

Additional observations from a re-analysis of the deposited data

How the results depend on the processing

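Unless said, the cause of a change was not tested. Between day 30 and day 10 all genes called numbered 3841, and 6338 probe sets passed when every probe set was tested, where more features enter, and 6126 genes with array weights. Of the 33 genes, 5 were lower with median centring, which lowers every gene by 0.16 and adds Idh3a and Dlst, and 5 with array weights, while 1 was higher with only the arrays of the days compared, which leaves fewer samples. Between day 20 and day 10 the calls were 3962 with every probe set, 5612 with weights and 1326 with only the arrays compared. Members higher numbered 2 without dim genes and 2 with the trend and robust prior, which both add Pdha1, and 7 with weights, and members lower 0 with only the arrays compared. Between day 30 and day 20, 61 genes were called, 33 after quantile normalization, 38 after centring, 14 without dim genes, 311 with weights and 33 with the replicate block. For the later minus the earlier change, weights gave 1912 genes and 4 members. Over any days, the mean of probe sets gave 3 members, every probe set 5052 calls, and weights 6429 genes and 10 members. Idh3a minus Idh3g was -0.498 with the mean of probe sets (adjusted p = 0.15). Leaving out each array in turn gave 2572 to 5084 genes, 1 to 6 members higher and 1 to 4 lower between day 30 and day 10; 1014 to 4646 genes, 1 to 8 higher and 0 to 5 lower between day 20 and day 10; 5 to 160 genes between day 30 and day 20; 0 to 1725 genes and 0 to 5 members for later minus earlier; and 1932 to 5047 genes and 1 to 9 members over any days. Every upper end is without day 10 replicate 3, the array with the lowest weight (0.29). The pairs ran from 0.261 to 0.713 for Sucla2 minus Suclg2, 0.475 to 1.3 for Idh2 minus Idh1, -0.334 to -0.123 for Mdh2 minus Mdh1 and 0.31 to 1.29 for Me3 minus Me1.

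With the replicate number as a block, 3614 genes passed between day 30 and day 10, with 4 members higher, Me1 being added (adjusted p = 0.0088), and 3 lower, and between day 20 and day 10 Glud1 did not pass (adjusted p = 0.050). Of 9 arrays, 7 correlated best with an array of their own number, a hint from the data and not from the design. Of 1776 values of single members under the alternatives, 1705 kept their side of the threshold, 42 lost a call, 29 gained one and 0 turned a called direction. Of the 1705, 88 values of 24 members did change sign, with neither value past the threshold, the largest of them 0.326 in size as first computed.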

Other observations

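Some further pathway genes were picked after their values were seen. Bcat1, the cytosolic branched-chain aminotransferase, dipped at day 20: it read 8.20, 8.37 and 6.48 at day 10, 4.85, 5.23 and 4.80 at day 20, and 6.38, 7.25 and 6.85 at day 30. The difference between day 20 and day 10 was -2.73 (limma, adjusted p = 0.0096), that between day 30 and day 20 was 1.87 (adjusted p = 0.19), and the later minus the earlier change was 4.59 (adjusted p = 0.061). Bcat2, the mitochondrial aminotransferase, was higher at day 30 than at day 10 by 0.85 (adjusted p = 0.026), a call lost when day 10 replicate 1 was left out, or either of day 30 replicates 1 and 2 (adjusted p up to 0.088). Gpt2, the mitochondrial alanine aminotransferase, read 7.15, 6.72 and 7.13 at day 10, 6.87, 7.69 and 6.80 at day 20, and 7.996, 8.43 and 8.09 at day 30, and was higher at day 30 than at day 10 by 1.18 (adjusted p = 0.013). Pdk2, a pyruvate dehydrogenase kinase, was higher at day 30 by 1.76 (adjusted p = 0.048), and leaving out any array other than day 10 replicate 3 ended that call (adjusted p up to 0.14). Slc16a1, a carrier of lactate, pyruvate and ketone bodies, fell by 0.80 on the log2 scale (adjusted p = 0.025), a call lost when day 10 replicate 2 was left out, or either of day 30 replicates 1 and 3 (adjusted p up to 0.084).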
